A study of Mus musculus with 33 samples.

Results

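The NRF2 axis is described here through 10 genes: Nfe2l2, which encodes the transcription factor NRF2, Keap1, which encodes its inhibitor, and 8 genes known as NRF2 targets, Gclc, Gclm, Slc7a11, Gsr, Txnrd1, Srxn1, Nqo1 and Hmox1. They were chosen by symbol from the raw count tables, where they are 10 of 23366 rows in each. All 10 passed the filter on low counts in both the female and the male table.

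In unstressed cells KEAP1 holds NRF2 in the cytoplasm and presents it to a ubiquitin ligase, which marks it for degradation. Oxidants and electrophiles modify cysteines of KEAP1, NRF2 then escapes degradation, enters the nucleus and, paired with a small MAF protein, binds antioxidant response elements near genes for glutathione synthesis, thioredoxin reduction, NADPH supply and detoxification. In brain, astrocytes are known for a strong NRF2 response, and much of the control of NRF2 acts on the protein, which counts of mRNA do not measure.

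Frontal cortex from 33 C57BL/6 mice of about 1 month of age was measured by RNA-Seq, 16 labelled female and 17 labelled male. The air groups (6 female, 6 male) breathed filtered air, the nicotine groups (5 female, 6 male) the aerosol of e-cigarettes with 13 to 16 mg/ml of nicotine, and the no nicotine groups (5 female, 5 male) the aerosol of e-cigarettes without it. Dams were exposed during pregnancy, and dams and pups together after birth, in 3 whole-body chambers, 1 per treatment, so treatment and chamber cannot be told apart. The study's methods state that brains were taken some days after the last exposure, so levels during exposure were not measured. Per the study's methods each sample was 1 pup of its own litter and the sexes were sequenced in separate runs, so sex and run cannot be told apart and levels are not compared between the tables.

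Total counts were 19150562 to 27513174 per sample in the female table and 17845672 to 24787955 in the male table, and a gene of the axis had between 72 and 5074 counts in a sample. The library labelled male nicotine replicate 21 had 215 normalized CPM (read counts scaled to a common library size) of Xist and 1 count of the Y-linked genes searched, which goes against its label. Without it 0 of the 10 genes were still called by edgeR in the male nicotine group, and values without it are given for Gsr, Txnrd1, Hmox1, Nqo1 and Slc7a11. Ttr, a transcript of the choroid plexus, was above 50 CPM in 4 libraries, female air replicates 3 and 6, female no nicotine replicate 3 and male no nicotine replicate 7. Cortical glutamatergic markers, the defining transcripts of the labelled tissue, were detected in every group, but 13 of 16 fell in the female no nicotine group and 11 of 16 in the male no nicotine group against air, with 1 higher in each. Of 10 myelin genes, 10 rose in the female nicotine group and 9 in each of the no nicotine groups. Of 11 striatal markers tested 3, 1, 0 and 2 rose in the female nicotine, female no nicotine, male nicotine and male no nicotine groups, and of 8 choroid plexus markers 3 rose in the last. Of 10 astrocyte markers 0 were called by edgeR in these comparisons, with 1, 2, 0 and 4 at an unadjusted p below 0.05. In bulk tissue more cells of a type and more RNA per cell cannot be told apart.

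Per length of transcript, as RPKM (CPM divided by exon length in kilobases), Srxn1, the sulfiredoxin that repairs overoxidized peroxiredoxins, had the highest level in air, 46.7 ± 2.97 RPKM (SD, n = 6) in females and 43.5 ± 2.01 (SD, n = 6) in males. Keap1 came next with 19.9 ± 0.916 in females and 20.1 ± 0.595 in males. Txnrd1, Gclc and Slc7a11 followed, at 15.6, 14.9 and 13.4 RPKM in females and at 15.8, 14.97 and 14.1 in males, and neighbours among these 3 genes overlapped between samples. Gsr (11.4 and 10.4), Gclm (9.32 and 9.07) and Nfe2l2 (7.12 and 7.32) lay below them. The lowest levels were those of Nqo1 (3.65 ± 0.288 in females, 3.31 ± 0.478 in males) and Hmox1 (3.24 ± 0.275 and 2.74 ± 0.216), which overlapped each other in both tables. The order of the mean levels was thus the same in both tables. In females Slc7a11 also overlapped Gsr, and Gclm overlapped Nfe2l2, whereas in males these neighbours did not overlap. In the mm9 build the regulators lie at chr2:75513570-75542698 (Nfe2l2, minus strand) and chr9:21034174-21043776 (Keap1, minus strand), and Txnrd1 at chr10:82296696-82360469 (plus strand, 17 merged exons). The glutathione genes lie at chr9:77602342-77642292 (Gclc, plus), chr3:121948475-121972902 (Gclm, plus), chr3:50168858-50247535 (Slc7a11, minus) and chr8:34762995-34808635 (Gsr, plus). Srxn1 lies at chr2:151931252-151937112 (plus), Nqo1 at chr8:109912125-109927106 (minus) and Hmox1 at chr8:77617490-77624495 (plus), and counts were taken over the exons of each gene. Keap1 shares 510 exonic bases with an antisense lincRNA, Gm16754, and Gclm 296 with Gm17494. The strand used in counting is not stated, so reads of these partners cannot be told apart. Slc7a11 and Gclm also hold sequence that recurs elsewhere in the genome, 9.89% and 8.57% of their windows of 32 bases, and their counts are uncertain there. The 8 other genes had at most 1.67%.

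**Figure D1:**
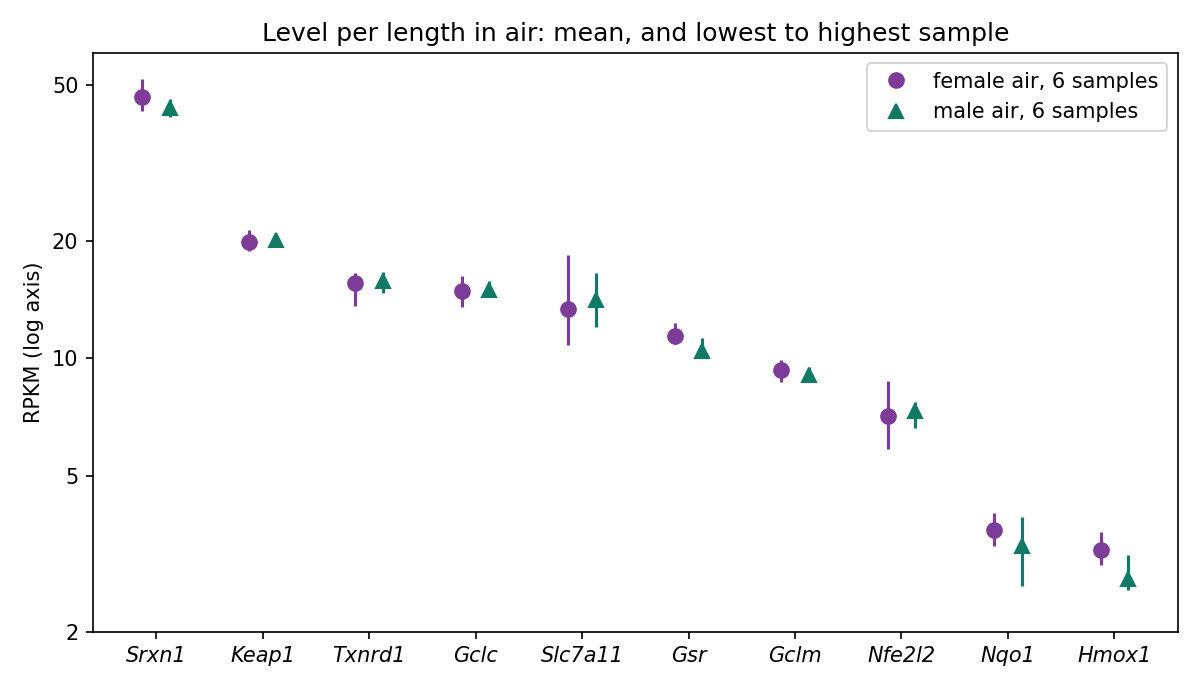
Level of the 10 NRF2 axis genes in air, in RPKM on a log axis, with the mean of 6 samples (circle: female, triangle: male) and a line from the lowest to the highest sample. Srxn1 stands at 46.7 and 43.5 RPKM, and Nqo1 and Hmox1 lie lowest, between 2.74 and 3.65.

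The core of the antioxidant response element is the short pattern TGACNNNGC, in which N is any base, and promoters of the axis were searched for it on both strands to show what such a match looks like beside genes that were measured. RefSeq promoter windows (250 bases before to 50 bases after a gene start, build GRCm38.p6) were held for 7 of the 10 genes, Nfe2l2, Keap1, Nqo1, Gclm, Srxn1, Txnrd1 and Slc7a11, with 3 windows for Txnrd1, and not for Hmox1, Gclc and Gsr. A match stood in windows of Nfe2l2, Gclm and Txnrd1 before the gene start and in that of Srxn1 at 28 bases after it, and in 4071 of all 32851 windows (12.4%). A match is only a description of these letters, and their absence from the windows of Keap1, Nqo1 and Slc7a11 covers these windows alone. The sequences are printed 5′ to 3′ on the strand of the gene, with the matching 9 bases in capitals. In Nfe2l2 (chr2:75704874-75704913, minus strand) the match begins 240 bases before the gene start. In Gclm (chr3:122245402-122245452, plus strand) it reads on the other strand and begins 134 bases before the start, and in Txnrd1 (chr10:82859093-82859143, plus strand) it also reads on the other strand and begins 92 bases before 1 of the 3 starts.
Nfe2l2: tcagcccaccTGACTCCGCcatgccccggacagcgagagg
Gclm: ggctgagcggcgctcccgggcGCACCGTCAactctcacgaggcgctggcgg
Txnrd1: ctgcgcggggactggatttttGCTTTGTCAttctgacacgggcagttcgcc

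Across the comparisons 1 gene of the axis passed the threshold, Txnrd1 in the male no nicotine group, where it was higher than in air by 18.1%. Calls were made with edgeR's quasi-likelihood test with Benjamini-Hochberg adjustment over all genes, at an adjusted p below 0.01. Against a background of 13.6% of 15293 genes called in that comparison, 1 of 10 is near the share of genes in general. Of the 10 genes 0 were called in the female no nicotine group against air (background 12.1% of 15158 genes), 0 in the female nicotine group (4.29%) and 0 in the male nicotine group (0%). At an unadjusted p below 0.05 edgeR counted 2, 1 and 3 of the 10 genes in these 3 comparisons, beside 36.4%, 28.1% and 14.4% of all genes, and 3 of 10 in the male no nicotine group, beside 36%. The Wald test of DESeq2 called 1, 0 and 0, and limma-voom called 0 in each.

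The 10 estimates were mostly above 0 but small. In the male no nicotine group 9 of 10 estimates were above 0, with a median log2 fold change of 0.099 beside 0.016 for all genes. In each of the other comparisons with air 7 of 10 were above 0, with medians of 0.035 (female nicotine), 0.042 (female no nicotine) and 0.045 (male nicotine), beside 0.0041, 0.0092 and 0.0065 for all genes. Of all genes 53.9% were above 0 in the male no nicotine group. The share was 51.0% (female nicotine), 52.1% (female no nicotine) and 52.8% (male nicotine) in the others. The estimates ran from -0.13 for Hmox1 in the female no nicotine group to 0.26 for Nqo1 in the same group, and the outermost bounds of their 95% intervals were -0.36 and 0.50. The exposed groups of a sex share their air samples, so these comparisons are not independent of each other.

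**Figure D2:**
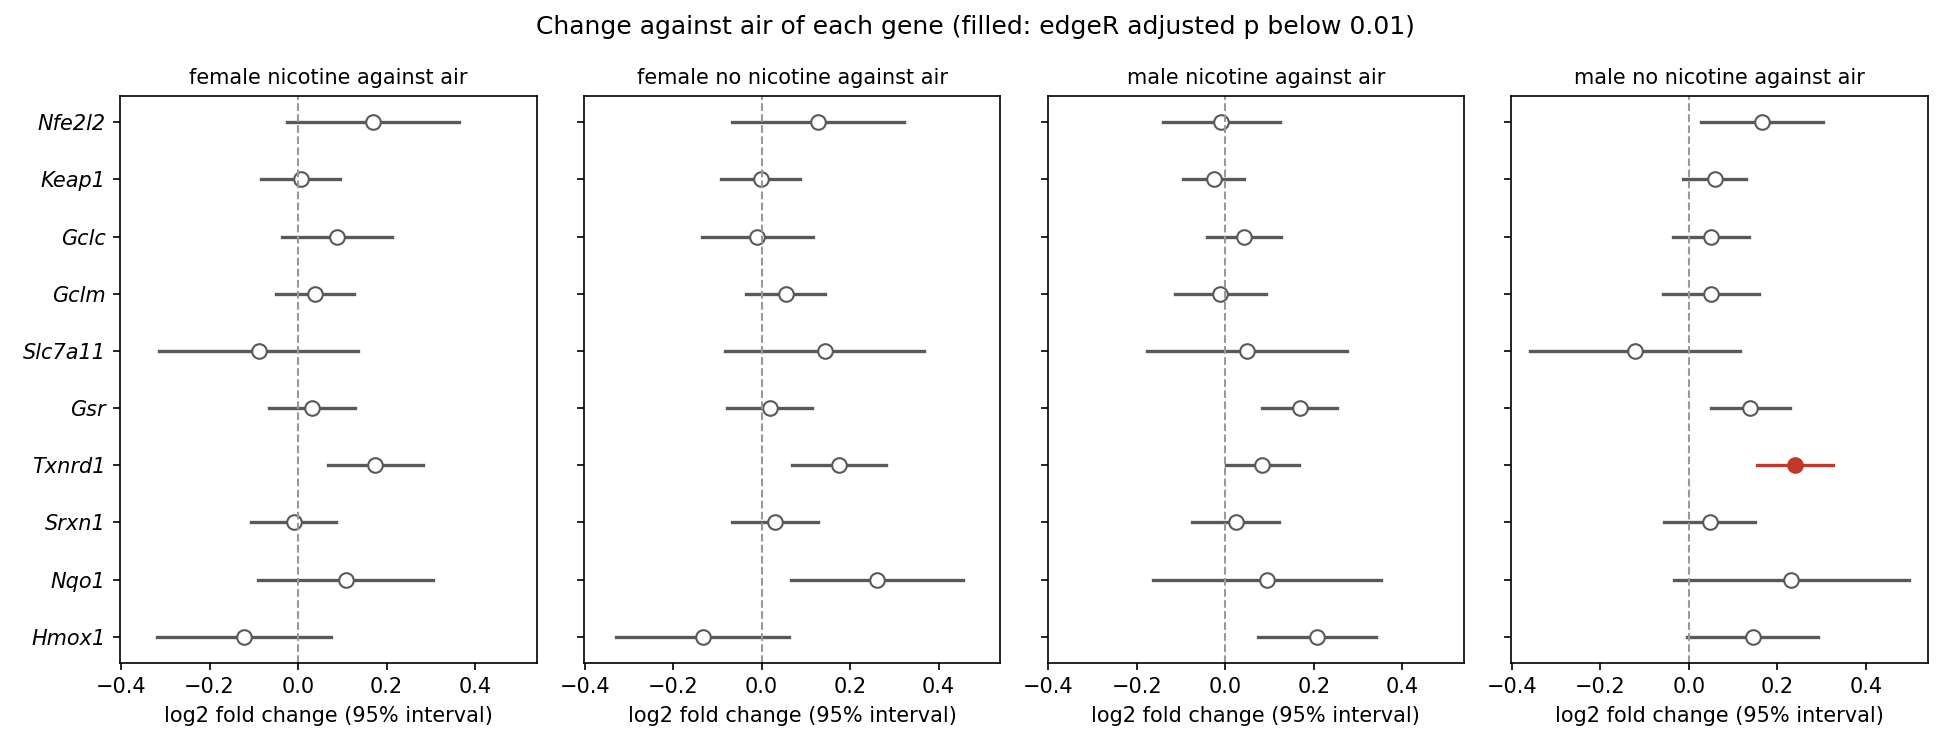
Log2 fold change against air of each NRF2 axis gene (point) with its 95% interval (line) in the 4 comparisons, from edgeR; filled points have an adjusted p below 0.01. Txnrd1 in the male no nicotine group, at 0.24, is the 1 filled point, and the intervals of Keap1, Gclc, Gclm and Srxn1 hold 0 in every panel.

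Nfe2l2 was measured at 25.2, 28.5 and 29.3 CPM (lowest, median and highest of 6) in male air and at 27.7, 27.96, 30.96, 35.9 and 33.3 CPM in the 5 male no nicotine samples. Of these 5, 3 lay above every air sample and the groups overlapped. The log2 fold change was 0.17 (SE 0.066, 95% interval 0.027 to 0.30), with an adjusted p of 0.0741 by edgeR. With the cortical marker score as a covariate it was 0.38 (SE 0.11, adjusted p = 0.124 by edgeR), and was not called there either. In male nicotine it ranged from 25.3 to 30.1 CPM and the change was -0.0088 (95% interval -0.14 to 0.12). In females Nfe2l2 ran from 22.3 to 33.3 CPM in air, from 26.8 to 35.1 with nicotine and from 26.2 to 32.6 without nicotine. The changes of 0.17 and 0.13 there had intervals from below 0 to 0.36 and 0.32, so that a change of up to that size could not be told from none. They moved with single libraries, to 0.11 with nicotine without female nicotine replicate 6, and to 0.19 and 0.078 without nicotine when female air replicate 1 or replicate 5 was left out. The covariate brought them to 0.071 and -0.015, and without the libraries high in Ttr the change without nicotine was 0.070. Keap1 varied least of the axis across the male air samples, with a coefficient of variation of 2.96%. It had 88.9 ± 4.10 CPM (SD, n = 6) in female air, 89.3 ± 5.38 (n = 5) with nicotine and 88.8 ± 2.01 (n = 5) without. In males it had 89.8 ± 2.66 CPM (n = 6), 88.2 ± 3.93 (n = 6) and 93.5 ± 1.52 (n = 5). None of these differences was called, and the 95% intervals of the log2 change of Keap1 against air lay between -0.095 and 0.13 in the 4 comparisons.

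Gclc and Gclm encode the catalytic and the modifier subunit of glutamate-cysteine ligase, the rate-limiting enzyme of glutathione synthesis. Gclc lay between 46.4 and 55.5 CPM in female air, 47.3 and 61.0 with nicotine, and 47.3 and 54.5 without nicotine, and in males between 49.6 and 57.7 CPM over all groups. Gclm lay between 44.8 and 52.9 CPM in all female samples and between 41.8 and 52.5 CPM in all male samples. Neither subunit was called in any comparison. The 95% intervals of their log2 changes against air ran from -0.14 to 0.21 for Gclc and from -0.11 to 0.16 for Gclm, and larger changes than these lay outside the intervals.

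Slc7a11, the cystine importer that feeds glutathione synthesis, had the widest spread of the 10 genes in female air. There it ran from 122 CPM through a median of 147 to 207 CPM, where female air replicate 1 stood apart. The female nicotine samples had 143, 120, 146, 159 and 138 CPM and the no nicotine samples 179, 161, 180, 160 and 150 CPM, all groups overlapping. Every no nicotine sample but replicate 5 lay above all 5 nicotine samples. The log2 change between nicotine and no nicotine was -0.23 (95% interval -0.47 to 0.0037), with an adjusted p of 0.597 by edgeR. Against air the change of Slc7a11 was -0.089 with nicotine (95% interval -0.32 to 0.14) and 0.14 without (95% interval -0.082 to 0.37), neither called. Both moved with single libraries. Without female air replicate 1 they were 0.026 and 0.25, the latter with an adjusted p of 0.0239 by edgeR, not past the threshold. The change without nicotine was 0.089 without female air replicate 5 and 0.095 without the libraries high in Ttr. In males the samples ran from 135 to 185 CPM in air, from 138 to 204 with nicotine and from 120 to 169 without, and none of the differences was called. Without replicate 21 the change of Slc7a11 with nicotine was 0.086 in place of 0.049.

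Gsr encodes glutathione reductase, which returns oxidized glutathione to its reduced form. In male air it ran from 27.6 through a median of 28.4 to 31.1 CPM, and in male nicotine from 30.6 through 31.8 to 34.8 CPM. The male no nicotine samples had 31.7, 32.2, 30.3, 31.1 and 33.1 CPM. All but 1 of the air samples lay below both exposed groups, and replicate 39, at 31.1 CPM, lay within them. The log2 fold change was 0.17 with nicotine (SE 0.041, 95% interval 0.083 to 0.25, adjusted p = 0.0741 by edgeR) and 0.14 without (SE 0.042, 95% interval 0.050 to 0.23, adjusted p = 0.0224 by edgeR). Neither passed the threshold. Left out in turn, male air replicate 39 decided the second, which was then 0.16 with an adjusted p of 0.00888 by edgeR, so 2 genes of the axis in place of 1 would be called. Over the other settings its adjusted p ranged from 0.0182 to 0.213. Without the library labelled male nicotine replicate 21 the change of Gsr with nicotine was 0.18 (adjusted p = 0.0992 by edgeR), and over the other settings its adjusted p ranged from 0.0276 to 0.542. In females Gsr was at 31.5 ± 1.45 CPM (SD, n = 6) in air, 32.2 ± 1.04 (n = 5) with nicotine and 31.9 ± 1.87 (n = 5) without, log2 changes of 0.032 and 0.018. The female change with nicotine minus the male one was -0.13 (95% interval -0.25 to -0.0077, adjusted p = 0.762 by edgeR), which was not called.

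Txnrd1, thioredoxin reductase 1, uses NADPH to keep cytosolic thioredoxin reduced. In male air it ran from 59.0 through a median of 64.6 to 66.9 CPM, and the male no nicotine samples had 75.5, 76.9, 72.7, 75.8 and 74.2 CPM. Every no nicotine sample lay above every air sample, as 5.48% of the 15293 genes did in the same direction. The means were 75.03 ± 1.62 CPM (SD, n = 5) and 63.6 ± 2.90 (n = 6), and the log2 fold change was 0.24 (SE 0.041, 95% interval 0.15 to 0.33, adjusted p = 0.000443 by edgeR). An exact two-sided permutation test of the CPM gave p = 0.00433, the smallest that 5 against 6 samples allow. The male nicotine samples ran from 62.4 through 67.8 to 72.8 CPM, overlapping the air group and, in their highest sample, the no nicotine group. Their change against air was 0.084 (SE 0.040, 95% interval 0.0012 to 0.17, adjusted p = 0.341 by edgeR), and 0.086 without replicate 21. Set against no nicotine directly, the nicotine group was at -0.16 (95% interval -0.24 to -0.069), with an adjusted p of 0.0438 by edgeR and was not called at 0.01. The adjusted p was 0.0812 by edgeR without replicate 21 and ranged from 0.0157 to 0.207 over the other settings. Of the 10 genes 0 were called in that comparison (background 0.248%), 3 had an unadjusted p below 0.05 with edgeR (20.1% of all genes), and DESeq2 and limma-voom called 0.

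In females Txnrd1 had 69.0, 72.1, 70.7, 74.2 and 68.2 CPM with nicotine and 65.3, 73.4, 76.0, 68.1 and 71.2 CPM without, against 54.7 to 66.4 CPM (median 63.5) in air. The nicotine samples all lay above the air samples, as 3.07% of 15158 genes did, and the no nicotine group overlapped air in its lowest sample. The log2 fold changes were 0.18 with nicotine (SE 0.051, 95% interval 0.068 to 0.28, adjusted p = 0.0318 by edgeR) and 0.17 without (SE 0.051, 95% interval 0.068 to 0.28, adjusted p = 0.0189 by edgeR). Neither was called by edgeR, and the change without nicotine was called by the Wald test of DESeq2 (adjusted p = 0.00923), with a range over the settings from that to 0.901. Nicotine and no nicotine differed by 0.00090 in females (95% interval -0.11 to 0.11). Of the 10 genes 0 were called in this comparison (background 0%) or had an unadjusted p below 0.05 with edgeR (8.36% of all genes), and DESeq2 and limma-voom called 0. Female air replicate 2, at 54.7 CPM, stood apart below the others, and without it the changes were 0.14 (adjusted p = 0.0604 by edgeR) and 0.14 (adjusted p = 0.0379 by edgeR). Over the other settings the adjusted p of the change with nicotine ranged from 0.0143 to 0.543. The difference between the sexes was 0.10 with nicotine (95% interval -0.030 to 0.23) and -0.059 without (95% interval -0.19 to 0.073), both uncalled.

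Several marker lists moved in the groups in which the estimates of Txnrd1 were above 0. The mean log2 CPM of the 16 cortical glutamatergic markers was 6.72 to 6.87 in male air, 6.20 to 6.61 in male nicotine and 5.64 to 6.50 in male no nicotine. Summed over the list this was 5163 to 6071, 3770 to 4823 and 2394 to 4056 CPM, with the defining gene Slc17a7 at 2037 to 2496, 1469 to 2108 and 654 to 1497 CPM. Myelin genes summed to 9723 to 11887, 9946 to 15475 and 14160 to 24213 CPM in the same groups. In females the cortical list summed to 5547 to 7358 CPM in air, 3666 to 5418 with nicotine and 2502 to 5020 without. There its median log2 change with nicotine was -0.61, with 3 of 16 markers lower, 1 higher and 16 at an unadjusted p below 0.05 by edgeR. Striatal markers had median log2 changes of 0.68 (female nicotine), 0.45 (female no nicotine), 0.33 (male nicotine) and 0.68 (male no nicotine), and summed to 1695 to 2921 CPM in male air and 1993 to 5290 CPM in male no nicotine, which overlap. Within groups, Txnrd1 followed the striatal list with an r of 0.65 over 16 female and 0.55 over 17 male samples, and the cortical list with -0.36 and 0.098. Its r was 0.56 and 0.20 with the myelin list. With the astrocyte list it was -0.60 and -0.63, with the endothelium list -0.69 and -0.58, and with the microglia and macrophage list -0.52 and -0.47. The samples share a run, and the part of striatal and myelin markers in the change of Txnrd1 was not tested. With the cortical marker score as a covariate the male no nicotine change of Txnrd1 was 0.26 with a larger SE of 0.078, and its adjusted p rose to 0.133 by edgeR, so that it was no longer called. In females the same covariate brought the change to 0.11 with nicotine and to 0.081 without. The adjusted p of the male no nicotine change ranged from 2.77e-06 to 0.133 over the settings tried. It was 0.000681 by edgeR without replicate 7, the library high in Ttr.

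**Figure D3:**
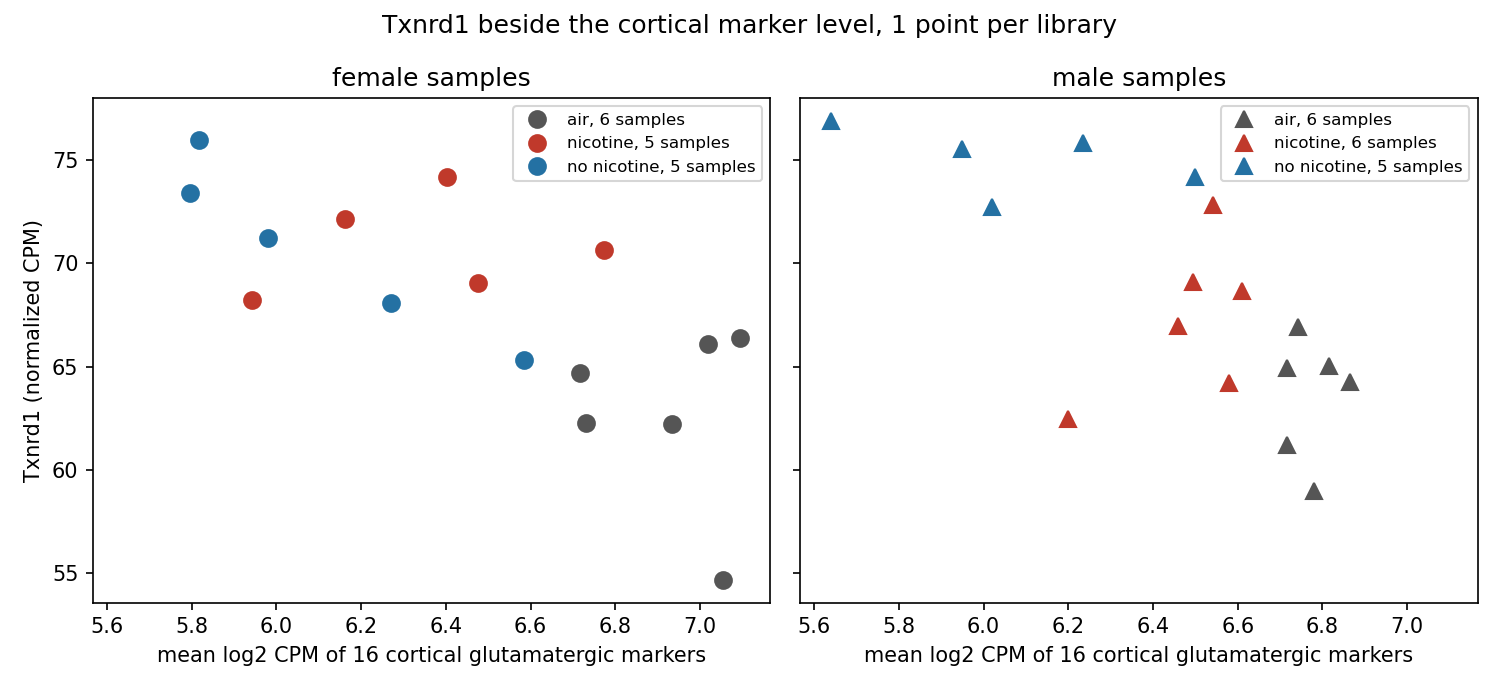
Txnrd1 in normalized CPM against the mean log2 CPM of 16 cortical glutamatergic markers, 1 point per library, females left and males right, coloured by group. The air libraries lie at marker levels of 6.72 to 7.09 with at most 66.9 CPM, and female nicotine replicate 3 lies among them in marker level, at 6.77. The male no nicotine libraries lie at 72.7 to 76.9 CPM with marker levels of 5.64 to 6.50.

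Srxn1, in contrast, was at 132 ± 8.36 CPM (SD, n = 6), 131 ± 6.18 (n = 5) and 135 ± 4.98 (n = 5) in female air, nicotine and no nicotine. In males it was at 123 ± 5.68 CPM (n = 6), 125 ± 6.80 (n = 6) and 127 ± 9.10 (n = 5). All groups overlapped, and the 95% intervals of its log2 changes against air lay between -0.11 and 0.15.

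Nqo1 encodes the quinone reductase that is widely used as a readout of NRF2 activity. In female air it ran from 5.14 through a median of 5.50 to 6.27 CPM, and the no nicotine samples had 6.60, 7.56, 6.67, 6.95 and 6.24 CPM. All but the lowest of them lay above every air sample. The log2 fold change of 0.26 (SE 0.092, 95% interval 0.067 to 0.45) had an adjusted p of 0.0463 by edgeR and was not called. The female nicotine samples ran from 5.15 to 7.72 CPM, with a change of 0.11. Female nicotine replicate 5, at 7.72 CPM, carried it, and without that library the change was 0.0067. In males Nqo1 had 4.08 to 6.10 CPM in air, 3.84 to 6.28 with nicotine, and 5.11, 6.47, 7.01, 6.23 and 5.26 CPM without nicotine. The change with nicotine was 0.094, and 0.050 without replicate 21, in a range of 0.033 to 0.17 with any 1 library left out. The change without nicotine was 0.23 (95% interval -0.034 to 0.50, adjusted p = 0.201 by edgeR), and the counts behind it are the lowest of the axis.

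Hmox1, heme oxygenase 1, breaks heme down to biliverdin, iron and carbon monoxide. Male air ran from 5.52 through a median of 5.75 to 6.81 CPM and male nicotine from 6.51 through 6.85 to 7.07 CPM. The groups overlapped through air replicate 39 alone. The log2 change was 0.21 (SE 0.063, 95% interval 0.074 to 0.34, adjusted p = 0.136 by edgeR), and not called. It was 0.20 without replicate 21 (adjusted p = 0.221 by edgeR), and its adjusted p ranged from 0.0687 to 0.557 over the other settings. The male no nicotine samples had 6.32, 6.38, 6.40, 6.58 and 7.01 CPM, a change of 0.14 (95% interval -0.0040 to 0.29). In females the estimates were on the other side of 0. Air ran from 6.42 through 6.74 to 7.77 CPM, nicotine had 5.57, 6.59, 6.65, 6.62 and 6.67 CPM and no nicotine 6.89, 7.56, 6.47, 5.95 and 5.08 CPM. The changes were -0.12 (95% interval -0.32 to 0.075) and -0.13 (95% interval -0.33 to 0.063), neither called. They shrank to -0.075 without female nicotine replicate 1 and to -0.060 without female no nicotine replicate 5. The female change minus the male one was -0.32 with nicotine (95% interval -0.54 to -0.10, adjusted p = 0.565 by edgeR) and -0.27 without (95% interval -0.49 to -0.049, adjusted p = 0.945 by edgeR). In these tests of the difference between the sexes 0 of the 10 genes and 0% of 15105 genes were called, 2 and 1 of the 10 had an unadjusted p below 0.05 with edgeR (6.47% and 4.91% of all genes), and DESeq2 and limma-voom called 0 of the 10.

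**Figure D4:**
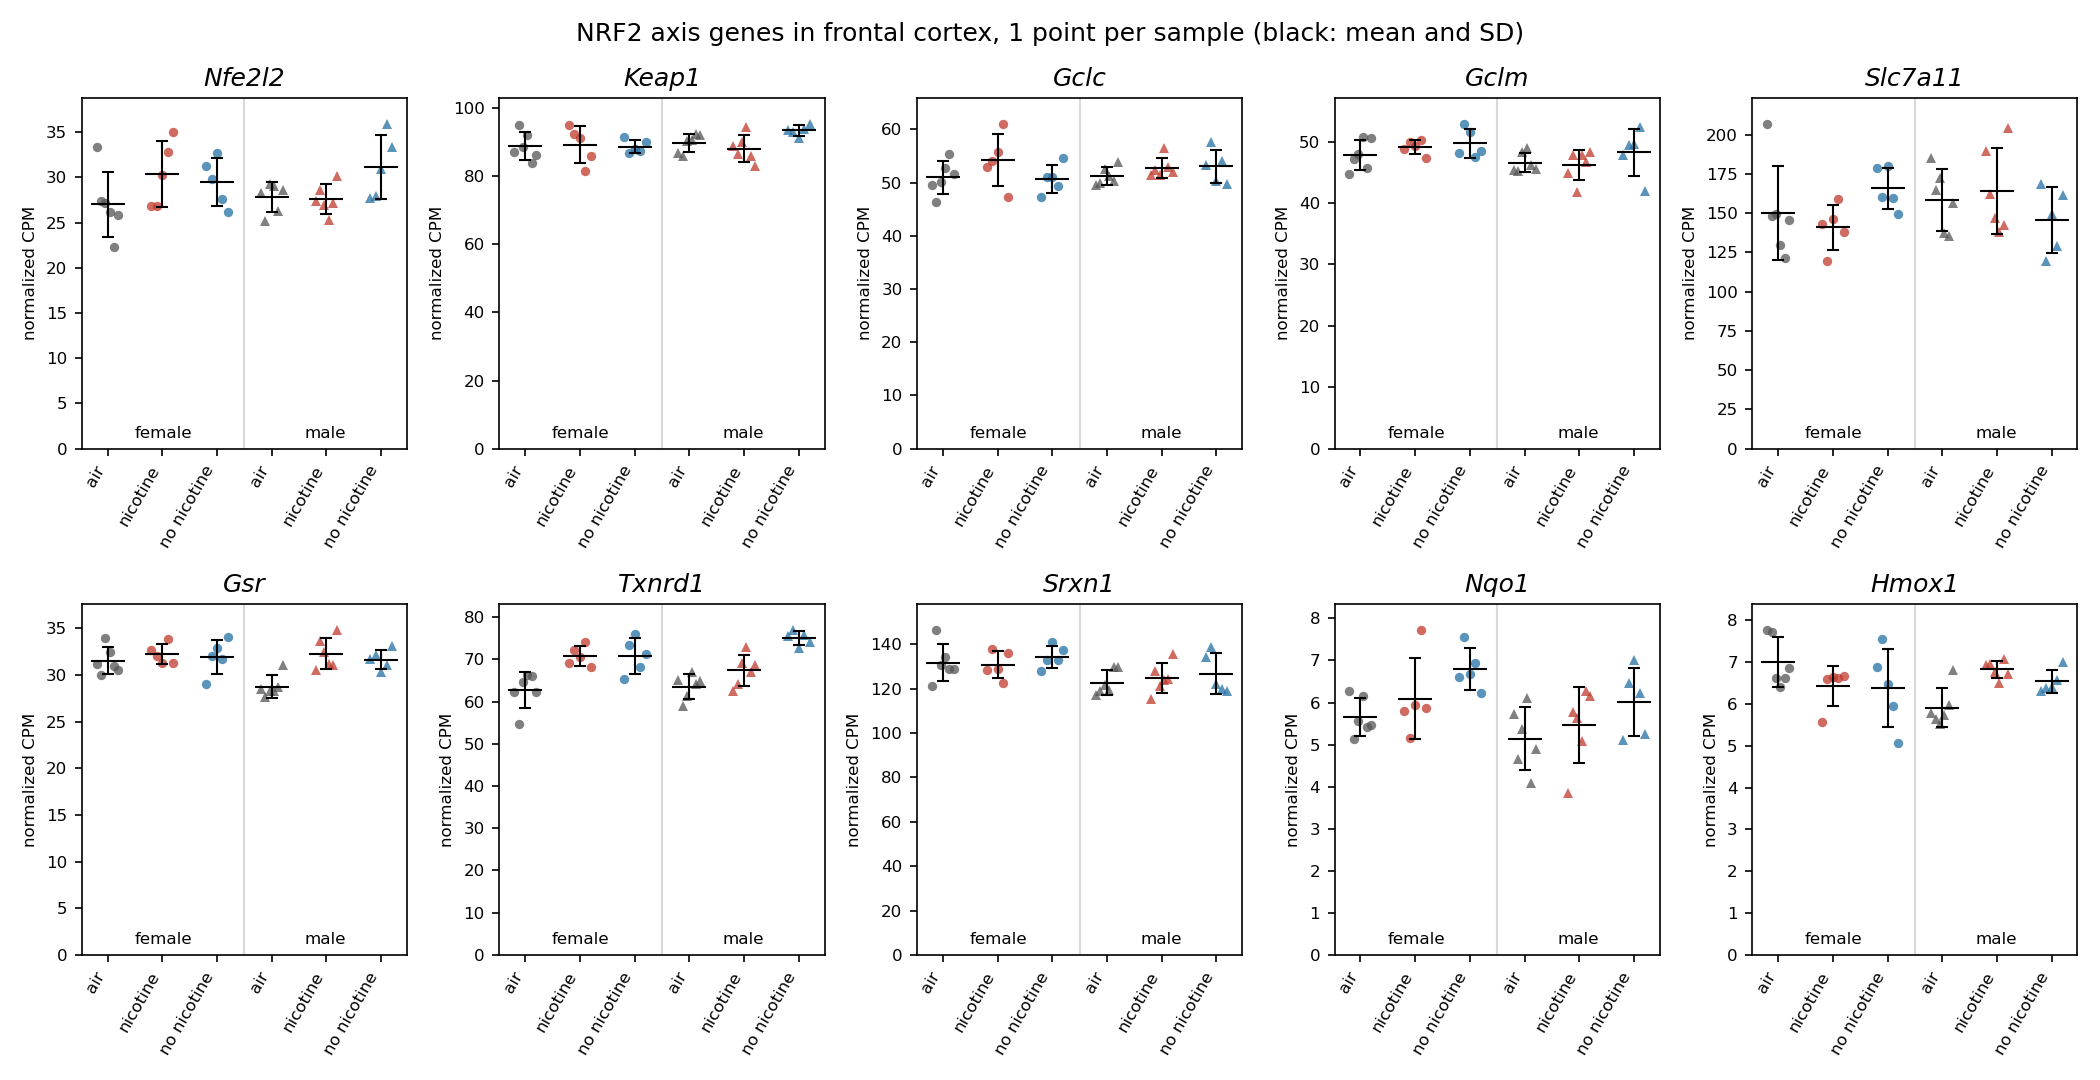
Normalized CPM of each NRF2 axis gene, 1 point per sample (circles female, triangles male), with mean and SD in black, by group. The male no nicotine samples of Txnrd1, at 72.7 to 76.9 CPM, all lie above the male air samples, while the groups of Keap1, Gclm and Srxn1 overlap.

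Other genes of the pathway were read from 6 lists of 58 genes in all. In the male no nicotine group 12 of 58 rose and 1 fell (background 13.6%), in the female no nicotine group 8 rose (12.1%), in the female nicotine group 1 rose (4.29%), and in the male nicotine group 0 were called by edgeR (0%), where 7 had an unadjusted p below 0.05 and DESeq2 and limma-voom called 0. The median log2 fold changes over the 58 genes were 0.058, 0.027, 0.052 and 0.027 in this order, beside 0.016, 0.0092, 0.0041 and 0.0065 over all genes. Between nicotine and no nicotine 0 of the 58 were called by edgeR in either sex, with 6 of 58 in females and 19 of 58 in males at an unadjusted p below 0.05, and DESeq2 called 0 and 1 and limma-voom 0 in each.

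Of the 6 genes of NADPH supply, which feeds both glutathione reductase and thioredoxin reductase, 5 rose in the male no nicotine group. Of all genes 13.6% were called there, and with the cortical marker covariate 0 of the 58 pathway genes were. G6pdx, the first enzyme of the pentose phosphate pathway, rose by a log2 fold change of 0.26 (adjusted p = 0.000691 by edgeR), and Idh1, the cytosolic isocitrate dehydrogenase, by 0.25 (adjusted p = 0.002). Pgd (0.17), Tkt (0.14) and Taldo1 (0.27) rose too, and Me1 was not called. In the female no nicotine group Idh1 rose from 69.8 ± 3.95 CPM (SD, n = 6) to 84.9 ± 6.15 (n = 5), Taldo1 by 0.18 and Pgd by 0.21. Taldo1, transaldolase, was also the 1 gene that rose in the female nicotine group, from 68.2 ± 1.82 CPM to 78.8 ± 3.69 (log2 fold change 0.21, adjusted p = 0.00194 by edgeR). The list's median was 0.21, 0.19, 0.17 and 0.058 in the male no nicotine, female no nicotine, female nicotine and male nicotine groups.

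Of 14 genes of glutathione supply and use, 3 rose in both no nicotine groups. Gpx3, the secreted glutathione peroxidase, rose from 15.3 ± 1.58 to 32.2 ± 9.11 CPM in females (log2 fold change 1.07, SE 0.21) and from 15.7 ± 3.58 to 29.5 ± 6.31 CPM in males (0.92, SE 0.15). Mgst1, a microsomal glutathione transferase, rose by 0.55 in each sex, and Gss, glutathione synthetase, by 0.46 in females and 0.39 in males. Mgst3 fell by 0.19 on the log2 scale in males, and the other genes of the list were not called. Among 11 thioredoxin and peroxiredoxin genes, Prdx3, the mitochondrial peroxiredoxin, rose in the female no nicotine group (0.20) and Prdx1, a cytosolic one, in the male no nicotine group (0.20). Sod1, the cytosolic superoxide dismutase, rose in both (0.23 and 0.24) and was the 1 gene called of 9 in the list of other detoxification and export. Of 12 partners and regulators, Fyn, a kinase, rose by 0.17 and Mafk, which encodes a small MAF partner of NRF2, by 0.33 in the male no nicotine group. Of 6 heme and iron genes 0 were called by edgeR in the comparisons with air, and 0 had an unadjusted p below 0.05.

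These pathway counts moved with the libraries left out and with the marker covariate. Without the libraries high in Ttr 0 of the 58 genes were called in both female comparisons with air, while 13 were called in the male no nicotine group, and only 18 of all 14921 genes were then called in the female no nicotine group. With the cortical marker score as a covariate 0 were called in all 3 groups. Of all genes that fit called 1 in the female nicotine, 0 in the female no nicotine and 13 in the male no nicotine group. The cortical marker score holds no myelin gene, and in both sexes it did not overlap between air and no nicotine. Score and treatment can therefore hardly be told apart there, and the part of cortical and myelin markers in the pathway calls was not tested.

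**Figure D5:**
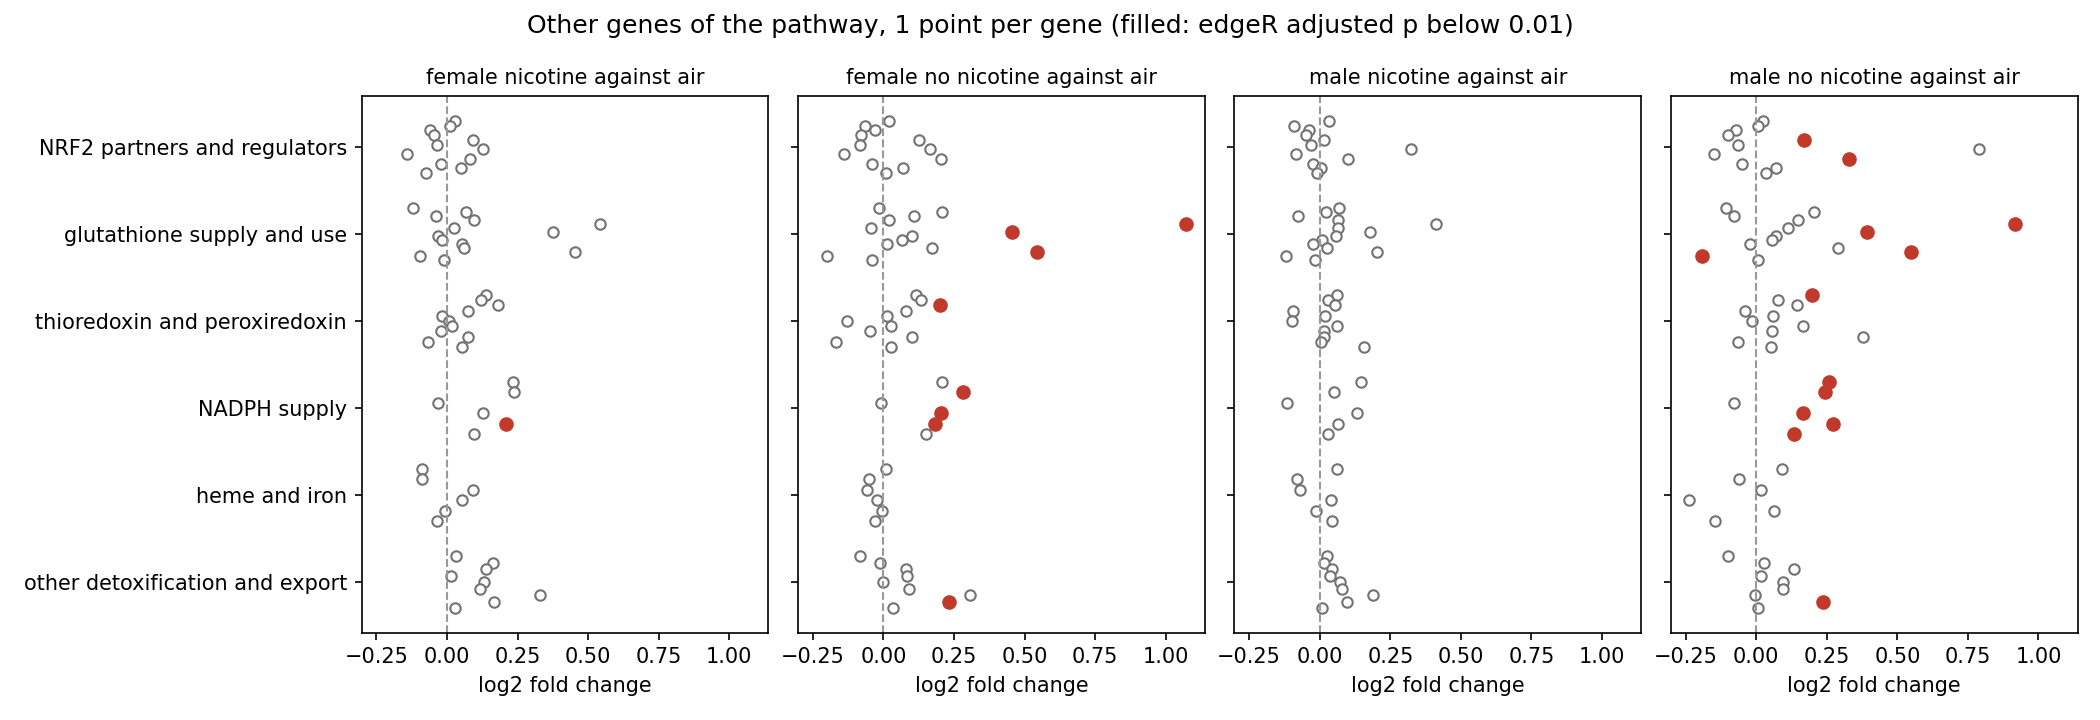
Log2 fold change against air of 58 other genes of the pathway in 6 lists, 1 point per gene, filled where the adjusted p by edgeR is below 0.01. The male no nicotine panel holds 13 filled points, 5 of them in the list of NADPH supply, and the male nicotine panel holds 0.

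Within groups, the 10 genes did not vary together as 1 block. Over samples, after the group means were removed, 13 of 45 pairs had a positive Pearson correlation in both tables and 13 a negative one, with a median of 0.033. The samples of a table share a sequencing run, and the correlations are given as a description. The highest mean correlation was that of Gclc and Txnrd1 (0.71 over 16 female and 0.47 over 17 male samples), and the lowest that of Keap1 and Nqo1 (-0.59 and -0.42). Among all 15105 genes tested in both tables, the genes most like Txnrd1 in this sense were Ntrk3 (mean r 0.80) and BC023829 (0.77). For Nfe2l2 they were Lman2 (0.82) and Fkbp9 (0.78), for Keap1 Srrd (0.74) and Arhgef4 (0.72), and for Nqo1 Senp8 (0.61) and Mtr (0.61). For Hmox1 they were Phkb (0.68) and Acss3 (0.66), for Gclc Samd8 (0.83) and Kcna4 (0.81), and for Gsr Metap1 (0.72) and Smn1 (0.68). Srxn1 was most like Prdx5 (0.77), which encodes a peroxiredoxin, and Pnkd (0.74). Slc7a11 was most like Iqgap1 (0.80) and Serpinh1 (0.80). Gclm was most like Rnf13 (0.75) and Mal (0.73), a protein of myelin, and followed the summed myelin list within groups with an r of 0.60 in females and 0.74 in males. Gclm itself was not called where the myelin genes rose.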

How the data were processed

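RNA of mouse frontal cortex was sequenced as single reads of 50 bases, females and males in separate runs. Per the study's methods and the labels, the authors demultiplexed with bcl2fastq, mapped the reads with Bowtie to mm9, removed PCR duplicates with SAMtools, which lowers the counts of abundant genes most, and deposited raw counts per gene made with HTSeq. The strand setting of the counting is not given in the sources used here. DESeq2 was the authors' test, and the normalized tables were not used here. Of the female count columns, 1 matched no labelled sample and was not used.

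The genes of the axis and all lists were chosen with earlier results of these data known. Genes whose CPM summed to at least 5 over the samples of a sex were kept, scaled by TMM and tested with edgeR 4.0.16 (quasi-likelihood test, 3 groups of a sex in 1 fit, R 4.3.3), and p-values were adjusted by Benjamini-Hochberg over all genes with a threshold of 0.01. Standard errors and 95% intervals were derived from the p-value and its degrees of freedom. Differences between the sexes were tested as interactions in 1 fit of 6 groups. CPM in the text are normalized by TMM, and RPKM divide them by merged exon length. Each sample was 1 pup of its own litter. Depth of 17845672 to 27513174 counts per sample limits the precision of the low genes. Permutation tests were exact and two-sided (SciPy 1.17.1), tables were handled with pandas 2.3.3 in Python 3.11.15, and plots were drawn with Matplotlib 3.10.9.

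Of each pathway list up to 2 genes called higher and 2 called lower with the smallest p were named per comparison, and for likeness the 2 genes with the highest mean r. Gss, Pgd, Taldo1 and Tkt were named outside this rule in some comparisons, after their values were seen. In data simulated for the no nicotine against air comparisons edgeR recovered 191 of 200 changed genes in females (15158 genes, 4 false calls). In males it recovered 185 of 200 (15293 genes, 5 false calls). Recovery of log2 fold changes as small as those of the axis was not tested. Alternatives were DESeq2 1.42.0 size factors and Wald test, upper quartile scaling, limma-voom 3.58.1 with quality weights, other filters, the compared groups alone, a cortical marker covariate, a replicate block, each library left out and, added after seeing the data, the 4 libraries high in Ttr left out.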

Additional observations from a re-analysis of the deposited data

Results flagged for a closer look

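In 60 combinations of a gene of the axis and a sample group, 6 single samples stood far from the others of their group. Chance gives about 1 in 20, but the 60 combinations share samples and are not independent, so an excess was not tested. Hmox1 was lowest in female nicotine replicate 1, at 5.57 CPM. In male air replicate 39 it was highest, at 6.81 CPM, and Gsr was highest in the same library, at 31.1 CPM. Gclc was highest in male nicotine replicate 19, at 56.4 CPM. Txnrd1 was lowest in female air replicate 2, at 54.7 CPM, and Slc7a11 was highest in female air replicate 1, at 207 CPM. The estimated change of Hmox1 with nicotine had opposite signs in the sexes, with every female nicotine sample below the mean of female air and every male nicotine sample above the mean of male air. The female change minus the male change was -0.32 on the log2 scale, with an adjusted p of 0.565 by edgeR, so the difference was not called. Without any 1 library the difference was between -0.37 and -0.27, and sex cannot be told apart from the sequencing run.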

How the results depend on the processing

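For the 10 genes of the axis, leaving Txnrd1 in the no nicotine groups and Gsr in the male no nicotine group aside, every alternative left the calls of edgeR as reported. DESeq2's Wald test called 1 of the 10 genes in the female no nicotine group, Txnrd1 (0.17, adjusted p = 0.00923), and the cortical marker covariate left 0 in the male no nicotine group, where Txnrd1 was 0.26. With 1 library left out the number called in the male no nicotine group was 1 to 2, the 2 without male air replicate 39. Signs turned 33 times in the other settings and 65 times with 1 library left out, always at adjusted p of at least 0.678 and log2 changes of at most 0.081 in size. With the covariate the changes were 0.029 (Gclc), -0.024 (Srxn1), -0.077 (Gsr), 0.064 (Keap1) and -0.015 (Nfe2l2) in female no nicotine, -0.032 (Gsr) in female nicotine, -0.041 (Srxn1), -0.026 (Gclm) and -0.059 (Gclc) in male no nicotine, and 0.081 (Nfe2l2), -0.0023 (Gclc) and -0.012 (Srxn1) in male nicotine. Between nicotine and no nicotine it gave -0.013 (Keap1) in females, and 0.057 (Gclc), 0.029 (Srxn1) and -0.0091 (Gsr) in males. With limma-voom they were 0.0025 (Gclc, female no nicotine) and 0.0027 (Nfe2l2, male nicotine), and for the sex difference -0.058 (Nqo1, nicotine), -0.014 (Nqo1) and -0.0077 (Gclm, both without nicotine). In female no nicotine Keap1 was 0.0043 with no filter, 0.0043 with the stricter filter and 0.013 with upper quartile scaling, which also gave 0.0051 for Gclc there and 0.011 for Srxn1 with nicotine. Without the libraries high in Ttr the values were -0.0012 (Srxn1, female no nicotine), -0.0039 (Keap1, female nicotine), 0.0016 (Gclm, female nicotine against no nicotine), and for the sex difference -0.0015 (Nqo1, nicotine), -0.024 (Nqo1) and -0.029 (Gclm, both without nicotine). With 1 library left out the ranges over those that turned were, in female nicotine, -0.016 to 0.036 (Keap1), -0.030 to 0.020 (Srxn1) and -0.14 to 0.026 (Slc7a11). In female no nicotine they were -0.020 to 0.016 (Keap1), -0.038 to 0.016 (Gclc) and -0.0064 to 0.044 (Gsr), and in male nicotine -0.037 to 0.017 (Nfe2l2), -0.025 to 0.016 (Gclm), -0.0020 to 0.045 (Srxn1) and -0.025 to 0.10 (Slc7a11). Between nicotine and no nicotine they were -0.010 to 0.090 (Nfe2l2), -0.0092 to 0.043 (Keap1), -0.062 to 0.075 (Hmox1), -0.027 to 0.0065 (Gclm), -0.019 to 0.028 (Txnrd1) and -0.011 to 0.039 (Gsr) in females, and -0.029 to 0.027 (Gclc) and -0.049 to 0.012 (Srxn1) in males. For the sex difference they were -0.079 to 0.079 (Nqo1) and -0.050 to 0.0027 (Srxn1) with nicotine, and -0.082 to 0.036 (Nfe2l2), -0.017 to 0.10 (Nqo1), -0.037 to 0.043 (Gclm) and -0.035 to 0.024 (Srxn1) without. The cause of these turns was not tested.

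The pathway counts moved more. In female nicotine (1 of 58) they were 5 with DESeq2's Wald test, 4 with upper quartile scaling, 3 with limma-voom, 2 with DESeq2 size factors, the stricter filter or the compared groups alone, and 0 with the covariate or without the libraries high in Ttr, with 1 to 3 when 1 library was left out (2 without air replicates 1 or 3, nicotine replicates 5 or 6 or no nicotine replicate 2, and 3 without nicotine replicate 3 or no nicotine replicate 1). In female no nicotine (8) they were 0 with the covariate and without the libraries high in Ttr, and 5 to 8 with 1 library left out (5 without air replicates 5 or 6 or no nicotine replicates 2 or 3). In male no nicotine (13) they were 0 with the covariate and 8 to 13 with 1 library left out (8 without air replicates 31 or 38 or no nicotine replicate 4). Between nicotine and no nicotine in males (0) DESeq2's Wald test gave 1, and leaving out 1 library 0 to 1 (1 without nicotine replicate 19 or no nicotine replicate 2). Over all genes edgeR called 651 in female nicotine, against 1319 with DESeq2's Wald test, 1012 with limma-voom, 136 with the replicate block, 125 without the libraries high in Ttr and 1 with the covariate, and upper quartile scaling changed its split from 300 higher and 351 lower to 372 and 242. In female no nicotine the 1829 became 736 with the block, 18 without those libraries and 0 with the covariate, and in male no nicotine the 2084 became 13 with the covariate. In male nicotine the 0 became 140 with DESeq2, 17 in the compared groups alone and 2 without the libraries high in Ttr. Between nicotine and no nicotine in males the 38 became 452 with DESeq2, 59 with limma-voom, 161 without those libraries, 7 with the covariate and 0 in the compared groups alone.

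Female samples share replicate numbers across groups, but the deviations of 14 same-numbered pairs correlated between -0.27 and 0.27 (median 0.014, 4 above 0.1), so the numbers were not taken as pairing. With the replicate block 0 genes of the axis were called in females, Txnrd1 was 0.18 with nicotine (adjusted p = 0.0616 by edgeR) and 0.17 without (adjusted p = 0.0425 by edgeR), Hmox1 was -0.0083 between nicotine and no nicotine, and the pathway count without nicotine was 4. No paired analysis was possible in males because their groups share no replicate numbers. The depth limits Nqo1 and Hmox1 most, whose counts are lowest.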
